A study of Artemisia argyi with 3 samples.

Results

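The leaf and root transcriptomes of mature *Artemisia argyi*, a medicinal mugwort, were compared unigene by unigene. A unigene is a non-redundant sequence assembled de novo from the reads, and all 88,591 unigenes of the expression table entered the comparison. Of these, 80,500 were above 0 in at least 1 of the 2 tissues. Leaf, root and stem were each sequenced as 1 library from 5 pooled replicates of normal tissue of plants grown in a herb garden, so that there is 1 value per unigene and tissue. No treatment or genotype difference is stated. There was no replicate, every difference below is between a pair of libraries, and no p-value, SD or standard error is given. Expression is given as FPKM, the number of fragments scaled to unigene length and to all mapped fragments of the library. The table lists unigenes by identifier and pairs none with a gene name, so the tissues were not checked against marker genes and enzyme names are given only to the 7 unigenes that the study cloned. Depth was taken from the low values, since each added fragment moves a weakly expressed unigene by a fixed step of FPKM. Among 1134 singletons (unigenes outside any cluster of similar contigs) between 0.2 and 0.6 FPKM in both tissues, 46.1% lay at a single step with a log2 ratio of root to leaf of -0.09, so that 1 fragment was worth nearly the same FPKM in both libraries and the root library held about 1.06 times as many mapped fragments.

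Terpenoids, the main constituents of *Artemisia* oils, are built from the isomers isopentenyl diphosphate and dimethylallyl diphosphate. Plants make both by the mevalonate pathway, which starts from acetyl-CoA in the cytosol, and by the MEP pathway, which starts from pyruvate and glyceraldehyde 3-phosphate in plastids. Sesquiterpenes and sterols draw mainly on the mevalonate pathway, and monoterpenes, diterpenes, carotenoids and the chlorophyll side chain mainly on the MEP pathway. The leaf is the photosynthetic tissue and in *Artemisia* bears glandular trichomes, in which terpenoids are made and stored.

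Most unigenes present in both tissues were higher in leaf on the deposited scale, though not after median-ratio scaling. Above 1 FPKM in both tissues there were 26,104 unigenes, which held 91.0% of the FPKM sum of the leaf library and 89.0% of that of the root library. Their median log2 ratio of leaf to root was 0.50, a fold of 1.42, with quartiles of -0.28 and 1.26. Leaf was higher for 17,471 of them and root for 8608. A difference of at least 2-fold was found for 8599 unigenes with leaf higher, 32.9% of those compared, and for 3179 with root higher, or 12.2%. At least 8-fold apart were 835 unigenes with leaf higher (3.2%) and 512 with root higher (1.96%). The FPKM sums of both libraries differed less, by a fold of 1.09, than the typical unigene did. In bulk tissue, fewer cells of a type and less RNA per cell cannot be told apart as sources of such a difference.

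The split between the tissues rests on the scaling of the libraries. Division by median-ratio size factors, which sets the typical unigene equal in all 3 libraries, shifts every log2 ratio of leaf to root by -0.64. The limit of 1 was applied to the scaled values, so the set also changed, to 27,304 unigenes above 1 in both tissues. Their median was -0.01, with 2-fold differences for 5026 unigenes towards leaf and 5558 towards root. Leaf thus held 47.5% of the 2-fold differences, against 73.0% among the 26,104 unigenes on the deposited scale. Rescaling both libraries to the same sum (TPM) shifts the log2 ratios by -0.12 and left a median of 0.42 over the 30,237 unigenes then above 1.

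**Figure D1:**
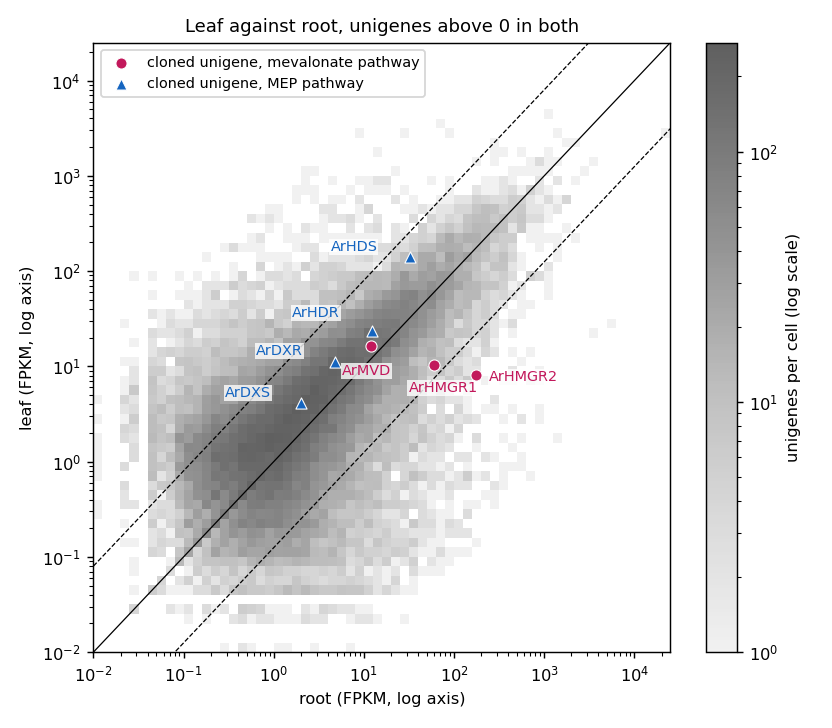
FPKM in leaf against FPKM in root on log axes for the 47,785 unigenes above 0 in both tissues, with grey for the number of unigenes per cell, a solid line of equal FPKM and dashed lines of 8-fold differences. The bulk of the unigenes lies slightly above the line of equal FPKM, the 4 cloned MEP unigenes and ArMVD lie above it, and ArHMGR1 and ArHMGR2 lie far below it.

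The ratio depended on expression level. With unigenes grouped by the geometric mean of their leaf and root FPKM, the median log2 ratio was 0.37 from 1 to 3 FPKM, 0.71 from 3 to 10, 0.48 from 10 to 30, 0.24 from 30 to 100 and 0.25 from 100 to 300. It was -0.06 for the 198 unigenes from 300 to 1000 FPKM and 0.14 for the 22 above 1000. Leaf was thus higher for 71.6% of the unigenes at 3 to 10 FPKM and for 48.5% at 300 to 1000. The quartiles of the ratios lay apart by 1.30 log2 units at 1 to 3 FPKM and by between 1.45 and 1.73 in the higher groups. In the lowest group the limit of 1 FPKM in both tissues bounds the ratio. The narrower quartiles there may follow in part from that limit.

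The choice of the level axis decided much of this picture. By stem FPKM, which is not part of the ratio, the median was also highest at 3 to 10 FPKM, with 0.72, and then fell in each group, to 0.51 at 10 to 30, 0.19 at 30 to 100, about 0 at 100 to 300, -0.26 at 300 to 1000 and -0.54 for the 22 unigenes above 1000. By the geometric mean it did not fall from 30 to 100 to 100 to 300 FPKM, nor above 1000. Grouping by leaf FPKM turned the trend, from -0.18 at 1 to 3 FPKM to 1.03 above 1000, and grouping by root FPKM steepened it, from 0.91 to -1.52. These last trends follow in part from the construction, since the grouping value is itself a term of the ratio. On the stem axis the share of unigenes at least 8-fold apart in either direction grew with level, from 2.09% at 1 to 3 FPKM to 14.4% at 300 to 1000, and was 9.09% of the 22 above 1000. With both tissues above 1 FPKM, an 8-fold difference needs more than 8 FPKM in 1 of them. Weak unigenes can therefore seldom reach it, and this rise may follow in part from that limit. At 300 to 1000 FPKM in stem the 8-fold differences were even, with 18 unigenes higher in leaf and 18 in root, whereas at 3 to 10 FPKM in stem there were 315 and 86.

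**Figure D2:**
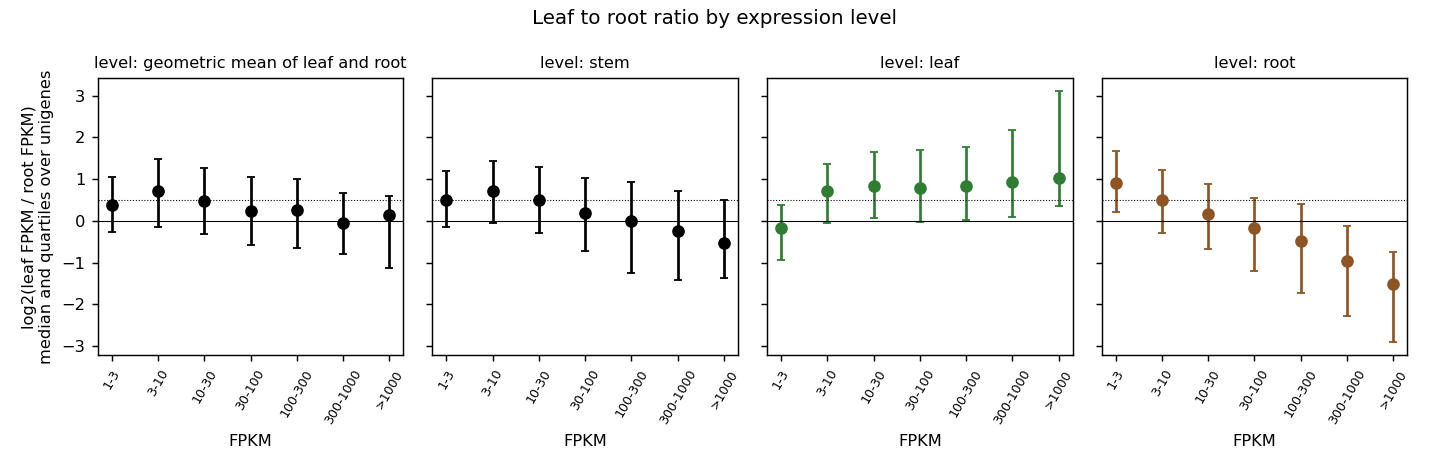
Median log2 ratio of leaf to root (points) with quartiles (bars) for the 26,104 shared unigenes, grouped by the geometric mean of leaf and root FPKM, by stem FPKM, by leaf FPKM and by root FPKM. The dotted line is their median, 0.50. On the first pair of axes the medians fall from 0.71 and 0.72 at 3 to 10 FPKM to about 0 or below at 300 to 1000 FPKM.

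Root expression was the more concentrated. The most abundant unigene made up 0.609% of the FPKM sum in leaf and 2.96% in root, the 100 most abundant made up 14.6% and 19.3%, and the 1000 most abundant 44.2% and 49.4%. To reach 50% of the sum took 1418 unigenes in leaf and 1035 in root. Above 10 FPKM there were 11,143 unigenes in leaf and 8713 in root, but above 1000 FPKM there were 33 in leaf and 41 in root. Since FPKM is relative to all fragments of a library, abundant unigenes lower the values of the others in that library.

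The 7 cloned unigenes encode enzymes of both terpenoid precursor pathways, and 5 of them were higher in leaf and 2, both HMGR, higher in root. HMGR, which reduces HMG-CoA to mevalonate and is a main control point of the mevalonate pathway, was cloned as a pair of unigenes that are the 2 contigs of cluster CL11002. ArHMGR2 (CL11002.Contig2) was at 8.08 FPKM in leaf and 174.9 in root, against 10.7 in stem. That is a log2 ratio of leaf to root of -4.44, or 21.6-fold higher in root, and 0.544% of the 26,104 shared unigenes had a lower ratio. ArHMGR1 (CL11002.Contig1) was at 10.3 FPKM in leaf and 59.5 in root, against 144.3 in stem, a log2 ratio of -2.53 or 5.76-fold higher in root. Both HMGR contigs were thus low and close to each other in leaf, while root was higher in ArHMGR2 and stem in ArHMGR1. RSEM, which estimated the FPKM values, divides fragments that fit both contigs between them, and the sum over the cluster was 18.4 FPKM in leaf and 234.4 in root, against 155 in stem. The study, which counts many more HMGR unigenes, describes HMGR as higher in leaves. Only these 2 contigs could be compared by name here. ArMVD (Unigene7594), which decarboxylates mevalonate diphosphate to isopentenyl diphosphate in the last step of the pathway, was at 16.2 FPKM in leaf and 12 in root, against 11.8 in stem. Its log2 ratio of 0.43 was close to the median of the shared unigenes, and 47.5% of them had a lower ratio. The study counts a single MVD unigene and, from its FPKM values, describes MVD, DXR and HDS among others as strongly differential in leaves.

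The 4 cloned MEP unigenes were higher in leaf than in root. ArHDS (Unigene5791), which makes the hydroxymethylbutenyl diphosphate of the penultimate step, was at 142.1 FPKM in leaf and 32.4 in root, against 70.6 in stem. With a log2 ratio of 2.13, or 4.39-fold higher in leaf, it stood above 91.1% of the shared unigenes, and it was the most abundant of the 7 in leaf. ArHDR (CL1787.Contig4), which turns that product into both isomers, was at 23.4 FPKM in leaf and 12.2 in root, against 40.3 in stem, a log2 ratio of 0.94. ArDXR (CL1159.Contig3), the reductoisomerase that forms methylerythritol phosphate, was at 11.02 FPKM in leaf and 4.83 in root, against 5.75 in stem, a log2 ratio of 1.19. ArDXS (Unigene11038), the synthase of the first step, was low in both tissues, with 4.16 FPKM in leaf and 2.01 in root, a log2 ratio of 1.05, against 71.8 FPKM in stem. All 4 MEP unigenes were therefore higher in leaf, as were 66.9% of the shared unigenes, and 3 of them by at least 2-fold, as were 32.9%. With TPM, or with a pseudocount of 1, 2 of them were past 2-fold, since ArDXS fell below it. The HMGR contigs, which belong to 1 cluster, were at least 2-fold higher in root, as were 12.2% of the shared unigenes.

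Summed, the 4 cloned MEP unigenes had 180.7 FPKM in leaf and 51.4 in root, and the 3 cloned mevalonate unigenes 34.6 and 246.4. The study assigned many more unigenes to both pathways, so these sums are not pathway totals. ArHDS was the highest cloned MEP unigene in both tissues, and ArHMGR2 the highest cloned mevalonate unigene in root but the lowest of the 3 in leaf. The directions of ArHMGR1, ArHMGR2 and the 4 MEP unigenes were the same with TPM and with median-ratio scaling, but with the latter ArHDS alone, at a log2 ratio of 1.49, stayed 2-fold higher in leaf, and ArMVD turned to -0.21. Ranks within each library need no scaling. From leaf to root ArHDS went from rank 853 to 3366, ArHDR from 5423 to 7465, ArDXR from 10,360 to 14,624 and ArDXS from 19,839 to 27,349. ArMVD kept nearly the same place, at 7526 and 7569. ArHMGR1 went from 10,876 to 1943 and ArHMGR2 from 12,985 to 613.

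The most abundant unigenes of leaf were mostly also well expressed in root. Of the 100 unigenes of highest FPKM in each tissue, 38 were on both lists, which is 38% of each list. Of these 38, 29 lay within 2-fold between the tissues, 18 were higher in leaf and 20 in root, and their median log2 ratio was -0.04. The other unigenes of each list were chosen by a high value in 1 tissue, so a difference towards that tissue is partly built in. Of the leaf list 33 were at least 8-fold higher in leaf, 15 were below 10 FPKM in root, and the lowest was at 1.76 FPKM there. Of the root list 23 were at least 8-fold higher in root, 9 were below 10 FPKM in leaf, and the lowest was at 0.71. For comparison, 21.4% of all unigenes at 300 to 1000 FPKM in leaf were at least 8-fold higher in leaf. For root that share was 17.9%. Of all 80,500 unigenes present in leaf or root, 1.99% and 1.65% were so with more than 10 FPKM in the higher tissue. Neither list held a unigene listed at 0 in the other tissue. In stem, 94 of the leaf list and 89 of the root list were above 100 FPKM.

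Unigene13045 had the highest value in leaf, with 4537 FPKM against 1014 in root and 1470 in stem. It was rank 39 in root, so it was abundant in all 3 tissues and its leaf to root fold of 4.47 was moderate. CL7081.Contig1 followed with 3889 FPKM in leaf and 67.3 in root, against 1421 in stem, a fold of 57.8. The third, Unigene20193, had 3058 FPKM in leaf and 26.7 in root, against 601.3 in stem, a fold of 114.5. Both of these were thus high in the aerial tissues and low in root.

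In root, CL48.Contig9 stood far above all other unigenes, with 20,278 FPKM against 2854 in leaf and 429.6 in stem. It was 7.10-fold higher in root but was also rank 5 in leaf, where it was the most abundant unigene of the root list after Unigene13045. The next, CL10745.Contig3, had 5750 FPKM in root, 29.7 in leaf and 382.3 in stem, a fold of 193.7 over leaf. CL11355.Contig1 had 3896 FPKM in root, 24.9 in leaf and 839.2 in stem, a fold of 156.2. In leaf, where CL48.Contig9 was rank 5, they were at ranks 4364 and 5119 of the 61,228 unigenes above 0.

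**Figure D3:**
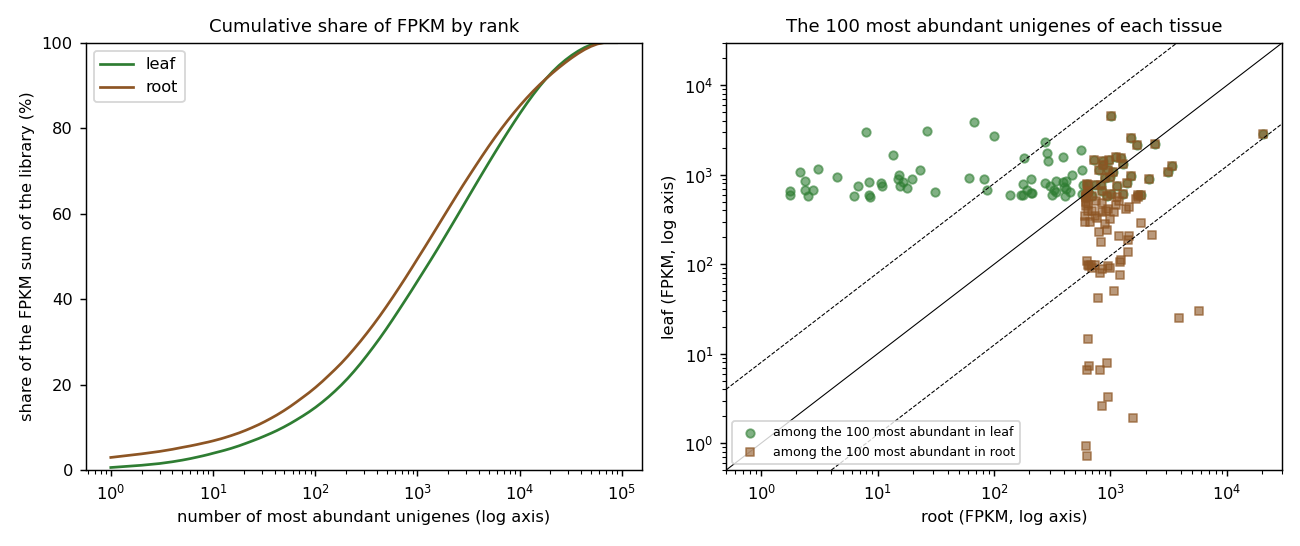
Left, cumulative share of the FPKM sum held by the most abundant unigenes of leaf and root, with the number of unigenes on a log axis. Right, leaf against root FPKM on log axes for the 100 most abundant unigenes of each tissue, with a solid line of equal FPKM and dashed lines of 8-fold differences. The root curve lies higher, at 19.3% against 14.6% for 100 unigenes. Of the 38 unigenes on both lists, 29 lie within 2-fold of the line of equal FPKM.

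Large folds were defined as at least 8-fold without a pseudocount, with more than 10 FPKM in the higher tissue. They were found for 1598 unigenes with leaf higher, 1.99% of the 80,500 present in leaf or root, and for 1330 with root higher, or 1.65%. As a share of all unigenes past 10 FPKM in the same tissue, these were 14.3% in leaf and 15.3% in root. The large-fold unigenes held 15.6% of the FPKM sum of the leaf library and 14.5% of that of the root library, and in the other tissue 0.642% and 0.511%. Their median was 23.7 FPKM in leaf and 25.2 in root. The split moved to 1856 in leaf and 1868 in root with TPM. With median-ratio scaling it was 1058 and 2032, so that root then had more. The limit of 10 was applied to the scaled values, so it changed along with the scale. In FPKM it was looser in both libraries with TPM. With size factors of 1.18 in leaf and 0.755 in root it was stricter in leaf and looser in root. The part of the limit and that of the ratios were not separated. At the limit of 8-fold, the nearest leaf-high unigene inside had a fold of 8.02 and the nearest outside 7.99, with 126 unigenes between 8 and 9-fold and 161 between 7 and 8-fold. For root the nearest were 8.01 and 7.98, with 78 and 84 unigenes.

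The 2 sets differed in how low the other tissue was. Of the leaf-high unigenes, 7.63% were listed at 0 in root, 41.2% were above 0 and at most 1 FPKM there, and 51.1% were above 1 FPKM. Of the root-high unigenes, 24.1% were listed at 0 in leaf, 37.9% were at most 1 FPKM and 38.05% were above it. Leaf had more listed zeros over the whole table as well, with 27,363 unigenes against 21,534 in root. A listed 0 went with low values in the higher tissue, where the median was 14.7 FPKM for leaf and 15.0 for root, and no unigene above 300 FPKM in either tissue was at 0 in the other. The highest of them were Unigene6174, with 51.9 FPKM in leaf and 16.3 in stem, and Unigene16173, with 191.0 in root and 22.6 in stem. Where the lower tissue was above 1 FPKM, the median fold was 12.8 for 817 leaf-high unigenes and 13.7 for 506 root-high ones, and folds of at least 100 were found for 27 and 24.

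The share of large folds depended on the level in the higher tissue, which is itself a term of the fold. Between 10 and 30 FPKM in the higher tissue 13.9% of the unigenes were leaf-high and 14.8% root-high, between 300 and 1000 FPKM 21.4% and 17.9%, and above 1000 FPKM 10 of 33 and 10 of 41. By the geometric mean of leaf and root there was no such rise from 10 FPKM on among the shared unigenes. These are above 1 FPKM in both tissues and so are another set. At least 8-fold apart were 8.36% of them at 10 to 30 FPKM, 7.23% at 30 to 100, 4.72% at 100 to 300, 6.57% at 300 to 1000 and 0 of 22 above 1000. Among the leaf-high unigenes 47.2% were contigs of clusters, against 57.8% of all unigenes above 10 FPKM in leaf. For root these shares were 56.7% and 59.1%. Singletons therefore made up more of the leaf-high set than of the leaf transcriptome at that level.

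Among unigenes with more than 1 FPKM in the lower tissue, the largest leaf to root fold was that of CL4607.Contig1, with 1063 FPKM in leaf and 2.17 in root, against 232.1 in stem, a fold of 489.9. It was followed by CL7271.Contig1, with 3048 FPKM in leaf and 7.97 in root, against 515.1 in stem, a fold of 382.4. Both had intermediate values in stem. In the opposite direction, under the same limit, CL7339.Contig2 had 1.91 FPKM in leaf and 1553 in root, against 7.65 in stem, a fold of 813.2, and CL48.Contig19 had 1.19, 556.1 and 1.09 FPKM, a fold of 467.3. Unlike the leaf-high pair, both were far below their root level in stem as well.

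The stem library took no part in the choice of either set, and stem levels spread more widely for the root-high one. For the leaf-high unigenes the median in stem was 6.90 FPKM with quartiles of 3.34 and 16.3, and for the root-high ones it was 7.55 with wider quartiles of 0.595 and 28.7. Of the leaf-high unigenes 6.45% were at or below 1 FPKM in stem, and of the root-high ones 28.0%. Conversely, 37.0% and 44.8% were above 10 FPKM there. On the scale of log2(FPKM + 1), stem lay nearer to leaf for 852 of the 1598 leaf-high unigenes, or 53.3%, and nearer to root for 695 of the 1330 root-high ones, or 52.3%. With median-ratio scaling these shares were 46.4% and 46.9%. With a pseudocount of 0.1 they were 63.2% and 57.2%. Where the lower tissue was above 1 FPKM they were 56.5% and 69.96%, so they depend on the pseudocount and on unigenes near 0. Stem lay between the 2 tissues or at one of them for 1481 of the leaf-high and 999 of the root-high unigenes, exceeded leaf for 80 and exceeded root for 228. Leaf was at least 8-fold above stem for 20.1% of the leaf-high unigenes, and root was for 39.5% of the root-high ones.

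**Figure D4:**
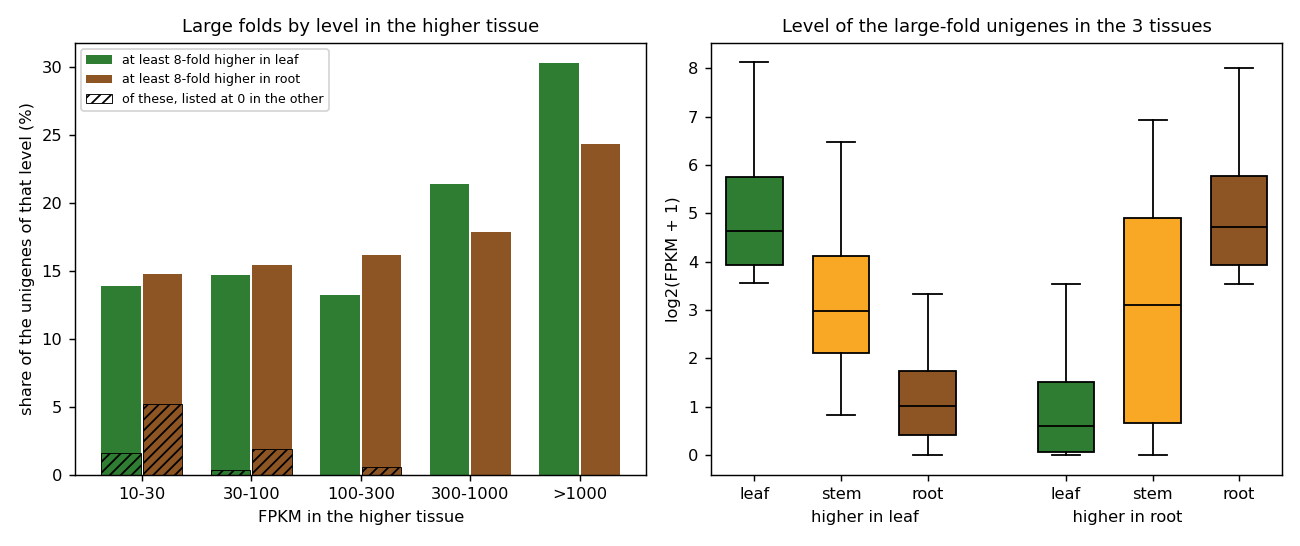
Left, share of the unigenes of each FPKM range that were at least 8-fold higher in leaf (green) or root (brown), with the part listed at 0 in the other tissue hatched. Right, log2(FPKM + 1) of the 1598 leaf-high and 1330 root-high unigenes in the 3 tissues, where boxes are quartiles, lines are medians and whiskers are percentiles 5 and 95. By FPKM in the higher tissue the shares are highest above 1000 FPKM, and the stem box of the root-high set is the widest.

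Contigs with the prefix CL are similar assembled sequences that the clustering placed together, such as splice forms, alleles or close paralogues, and fragments that fit several of them are divided by the estimation. FPKM was therefore also summed over the contigs of each of the 12,950 clusters. Among the 8296 clusters with a sum above 1 FPKM in both tissues the median log2 ratio of leaf to root was 0.56, with quartiles of -0.25 and 1.27, close to the values of single unigenes. A sum at least 8-fold higher in leaf and above 10 FPKM there was found for 415 clusters, 3.26% of the 12,721 present in leaf or root, and one at least 8-fold higher in root for 499, or 3.92%. By single contigs the numbers were even, at 755 and 754, and with each singleton counted as a cluster of its own leaf had more, with 1258 against 1075, since 843 leaf-high and 576 root-high unigenes are singletons. Among the clusters, 21 of the leaf-high and 161 of the root-high clusters were listed at 0 in the other tissue. Over all unigenes, too, more were listed at 0 in leaf than in root. With median-ratio scaling there were 278 and 734, so that leaf held 27.5% of them against 45.4%. Here too the limit of 10 was applied to the scaled sums.

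Summing removed part of the large folds of single contigs. Of the 755 leaf-high contigs 534 lay in leaf-high clusters and 221 elsewhere, and of the 754 root-high contigs 558 lay in root-high clusters and 196 elsewhere. The 221 leaf-high contigs belonged to 171 clusters, of which 138 were still at least 2-fold higher in leaf as a sum, 32 were within 2-fold and 1 was at least 2-fold higher in root. The 196 root-high contigs belonged to 153 clusters, of which 108 were at least 2-fold higher in root, 37 were within 2-fold and 8 were at least 2-fold higher in leaf. On the scale of log2(FPKM + 1), stem lay nearer to leaf for 62.4% of the leaf-high clusters and nearer to root for 41.9% of the root-high ones. These cluster shares were not recomputed with another pseudocount or with a limit on the lower tissue.

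Among clusters of at least 2 contigs with a sum above 1 FPKM in the lower tissue, all contigs of the 2 with the largest fold each way had the same direction. CL4607 summed to 1910 FPKM in leaf and 4.56 in root, against 481.1 in stem, a fold of 419, and both of its contigs were leaf-high. CL1614, with 3 contigs, summed to 588.9 FPKM in leaf and 1.44 in root, against 10.8 in stem, a fold of 409, so that unlike CL4607 it was low in stem. In root CL7339 summed to 2184.9 FPKM against 2.62 in leaf and 8.93 in stem, a fold of 833.9. CL7910 summed to 1995 FPKM in root against 5.34 in leaf and 5.19 in stem, a fold of 373.7, and all 5 of its contigs were root-high.

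CL48 held the largest sum of the root library, 25,817 FPKM or 3.77% of the total, against 3087 FPKM in leaf and 476.6 in stem, a fold of 8.36 over leaf. Of its 37 contigs 35 were higher in root and 25 of them met the limit for large folds, while CL48.Contig9 alone made up 78.5% of the root sum and 92.5% of the leaf sum.

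Contigs of 1 cluster had the same direction more often than not on the deposited scale. Leaf was higher for 66.6% of all shared cluster contigs, so unrelated contigs would often share a direction too. The counts below were not recomputed with median-ratio scaling. For 4879 clusters with at least 2 contigs above 1 FPKM in both tissues, all such contigs were higher in leaf in 2474 clusters and higher in root in 919, and the direction was mixed in 1486, or 30.5%. The log2 ratios of these contigs spanned a median of 0.72 within a cluster, with quartiles of 0.31 and 1.42, and at least 3 log2 units in 237 clusters. In 175 clusters 1 contig was at least 2-fold higher in leaf and another at least 2-fold higher in root.

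In 14 clusters, of 2 to 25 contigs in the table, a leaf-high and a root-high contig occurred side by side, both past 8-fold and 10 FPKM. In CL12442 the leaf-high CL12442.Contig4 had 1558 FPKM in leaf and 180.7 in root, against 41.6 in stem, and the root-high CL12442.Contig1 had 27.6, 419.1 and 22.9. As a sum the cluster reached 1617 FPKM in leaf and 946.7 in root, a log2 ratio of 0.77, although 24 of its 25 contigs were higher in root. In CL1766 the leaf-high CL1766.Contig2 had 56.7 FPKM in leaf and 4.2 in root, against 26.8 in stem, and the root-high CL1766.Contig1 had 15.2, 129.4 and 182.0. This cluster summed to 173.4 FPKM in leaf and 268.3 in root, a log2 ratio of -0.63. The sums of 9 of the 14 clusters lay within 2-fold between leaf and root, so that the opposite differences of their contigs are not seen in the cluster value.

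**Figure D5:**
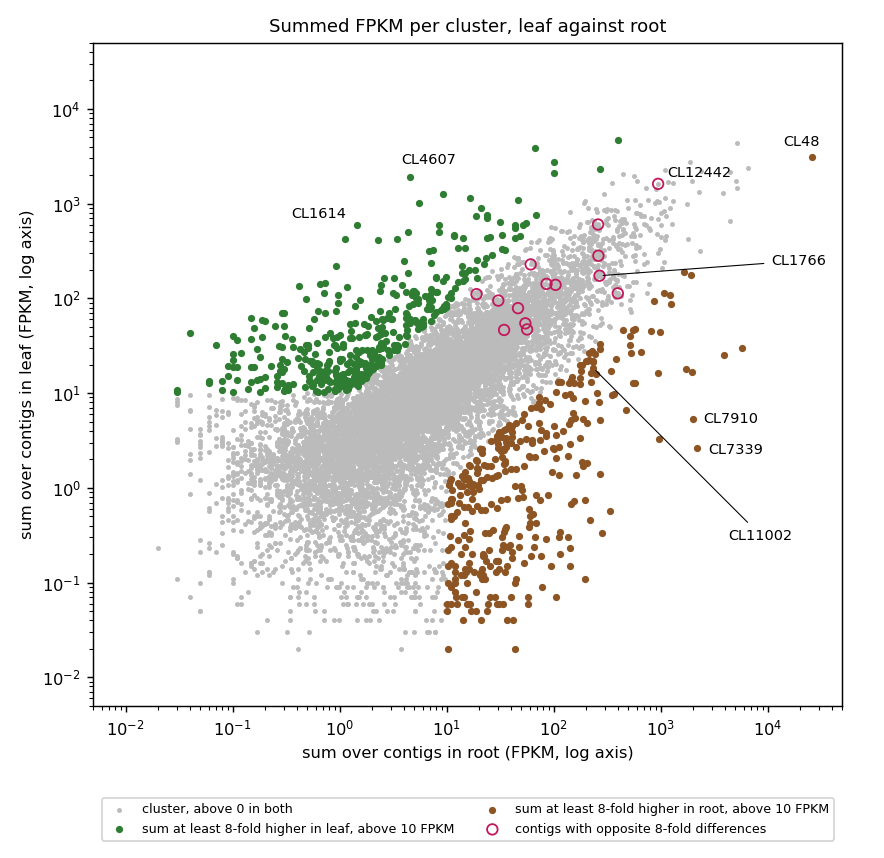
FPKM summed over the contigs of each cluster in leaf against root, on log axes, for the clusters above 0 in both tissues. Green and brown points are the clusters at least 8-fold higher in leaf or root with a sum above 10 FPKM there, and open circles are the 14 clusters that hold contigs with 8-fold differences in opposite directions. CL48 lies at the far right and the open circles lie mostly near the diagonal.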

How the data were processed

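Leaf, root and stem gave 1 library each, from 5 pooled replicates. Reads were filtered (Trimmomatic, per the submitters' processing notes), assembled with Trinity 2.06 and TGICL 2.06, mapped to the unigenes with Bowtie2 2.2.5 and quantified with RSEM 1.2.12. The authors deposited the estimates as FPKM with 2 decimals. No genome was used, and the suffix shared by all identifiers was dropped. Neither fragment counts nor lengths entered the work, so the counting error of single values is unknown, and no sequence was printed.

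Leaf and root FPKM were compared without a pseudocount. Log2 ratios were summarised over unigenes above 1 FPKM in both tissues, large folds were at least 8-fold with more than 10 FPKM in the higher tissue, and clusters were summed by their CL prefix. Named unigenes and clusters were the 7 cloned ones with their clusters, the 3 highest of each tissue, the 2 of largest fold each way with the lower tissue above 1 FPKM, the highest each way listed at 0 in the other tissue, the 2 clusters of largest fold each way with at least 2 contigs and the lower sum above 1 FPKM, and the 2 clusters with the most abundant opposite contigs. CL48 was also named, after its values were seen, because it holds the highest unigene of root. The comparison, limits and lists were chosen with earlier results of these data known. With 1 library per tissue no test was possible. Alternatives were TPM and median-ratio scaling, other limits, pseudocounts and level axes.

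Python 3.11.15, numpy 2.4.6, pandas 2.3.3 and matplotlib 3.10.9 were used. In simulated data for 88,591 unigenes with counting noise alone, 200 unigenes were raised 32-fold in leaf. The large-fold limits recovered 200 of these 200 and called 0 others. A rise of 32-fold lies far past the 8-fold limit, so this outcome checks the calculation only. Calls near the 8-fold limit cannot be judged from it, and neither can the large folds reported above.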

Additional observations from a re-analysis of the deposited data

How the results depend on the processing

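Of 124 values recomputed under alternatives, 83 stayed within 1.5 times the reported one, taken as a fold for log2 ratios. These 83 include the median log2 ratio of the shared unigenes, even where its excess in leaf all but vanished. They also include the top-list shares and overlap under both scalings, which division by a constant cannot change. No log2 ratio past 2-fold changed sign, but ArMVD, below that limit, went from 0.43 to -0.21 with median-ratio scaling. The median log2 ratio of the shared unigenes was most sensitive to median-ratio scaling (-0.01) and to including all unigenes with a pseudocount of 1 (0.02). The fall of the median from 3 to 10 FPKM to above 300 FPKM, -0.73 by the geometric mean, became a rise of 0.23 with leaf FPKM as the level and a fall of -1.59 with root FPKM, since the level is then a term of the ratio. Top lists of 10, 20 and 1000 unigenes held 3.94%, 6.08% and 44.2% of the leaf sum and 6.84%, 9.13% and 49.4% of the root sum, with 2, 4 and 519 unigenes on both lists. Large folds in leaf numbered 2747 at 4-fold, 1039 at 16-fold, 2614 above 5 FPKM, 929 above 20, 193 above 100, 17,607 without a limit on level, 817 with root above 1 FPKM and 1058 with median-ratio scaling. In root they numbered 2386 above 5 FPKM, 775 above 20, 191 above 100, 21,770 without a limit, 506 with leaf above 1 FPKM and 2032 with median-ratio scaling. Leaf-high clusters numbered 858 at 4-fold and 253 at 16-fold, root-high ones 852 above 5 FPKM and 291 above 20, and with singletons counted as clusters there were 1258 and 1075. With median-ratio scaling 1 of the 7 cloned unigenes was at least 2-fold higher in leaf in place of 3, and 2 with TPM or a pseudocount of 1. Apart from the level axes, these changes came with another limit, list length, scaling, pseudocount or unit counted. Under both scalings the limits were applied to the scaled values, so the sets compared changed as well. Why the values moved was not tested. No paired analysis was possible because each tissue has 1 library. The depth behind single values is unknown, so small differences near 1 FPKM may be within counting error.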

Other observations

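Unigenes listed at 0 in 1 of the 2 tissues were mostly singletons of low level. Singletons are also 50,167 of all 88,591 unigenes, but 39.5% of those above 1 FPKM in both tissues. There were 13,443 above 0 in leaf and at 0 in root, with a median of 0.84 FPKM and 69.0% singletons, and 19,272 above 0 in root and at 0 in leaf, with a median of 1.14 FPKM and 70.2% singletons. They held 2.39% of the leaf sum and 5.18% of the root sum. Among the large folds, 10 leaf-high unigenes (0.626%) and 127 root-high ones (9.55%) were listed at 0 in both other tissues, with up to 40.96 FPKM in leaf and 110.4 in root. Their medians were 12.7 and 13.4 FPKM, and 6 of the 10 and 59 of the 127 were singletons. Of all large folds, 843 of 1598 leaf-high and 576 of 1330 root-high unigenes were singletons. In the other direction, stem was at least 8-fold above the higher of leaf and root for 4 leaf-high and 6 root-high unigenes.

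Some abundant unigenes hardly differed between leaf and root. Among the 38 on both lists of the 100 most abundant, Unigene5676, with 655.7 FPKM in leaf and 644.6 in root, against 445.1 in stem, and Unigene9586, with 1065, 1045 and 605.6 FPKM, had the ratios closest to 1, and they were chosen after their values were seen. On the median-ratio scale, which shifts log2 ratios of leaf to root by -0.64, both would be higher in root. Of the 38, 26 were also among the 100 most abundant unigenes of stem.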
